A study of Mus musculus with 2 samples.

Results

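The genes described here encode the protein synthesis machinery: ribosomal proteins, factors for the initiation, elongation and termination of translation, aminoacyl-tRNA synthetases, and nucleolar proteins that help to build ribosomes. They were taken by gene symbol alone, with no measured value, from a table of 3134 genes, of which 48 matched. The assay was eCLIP of HP1 alpha, a protein of silent chromatin, in the established mouse fibroblast line NIH3T3. In eCLIP, ultraviolet light crosslinks a protein to the RNA it touches before precipitation and sequencing. One group is a library precipitated with an HP1 alpha antibody; the other is an input library whose antibody is labelled as none. The labels name no genotype change, drug or time point for either. Each of the 2 groups has 1 library, so no difference has a replicate check and no p-value was computed. The study looked for long noncoding RNAs associated with HP1 alpha, and the mRNAs below are part of the RNA recovered beside them.

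In translation, initiation factors bring the small ribosomal subunit and the first tRNA to an mRNA, elongation factors deliver charged tRNAs to the ribosome, and release factors end the chain at a stop codon. The tRNA synthetases charge each tRNA with its amino acid. Ribosomal subunits are assembled in the nucleolus, where small nucleolar RNAs (snoRNAs) guide the modification of ribosomal RNA. Many genes of this machinery carry snoRNAs within their introns, and many of their mRNAs begin with a run of pyrimidines (a terminal oligopyrimidine, or TOP, start) through which growth signals set their translation. HP1 alpha binds methylated histone H3 in silent chromatin, and these genes are active in growing cells.

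Annotated starts of 6 members are shown because a TOP start is the sequence feature best known in this gene family, and because the members with the lowest and with nearly the highest ratio among ribosomal protein genes both have such a run at their annotated start; Rps3 is a contrast without one. Each line has 30 bases, from 15 before to 14 after the first base of the RefSeq transcript, 5′ to 3′ on the coding strand in GRCm38.p6. Capitals mark the longest run of C or T within these bases.
Rpl27a (chr7:109519180-109519209, plus strand): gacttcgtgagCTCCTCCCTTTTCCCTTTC
Rpl13a (chr7:45128731-45128760, minus strand): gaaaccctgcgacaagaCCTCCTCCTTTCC
Rps9 (chr7:3704026-3704055, plus strand): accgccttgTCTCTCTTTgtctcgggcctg
Eif3f (chr7:108934400-108934429, plus strand): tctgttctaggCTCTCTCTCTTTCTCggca
Eef1a1 (chr9:78481710-78481739, minus strand): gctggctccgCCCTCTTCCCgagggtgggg
Rps3 (chr7:99483695-99483724, minus strand): CTTgcaagggtcgccgcgctgcgcggcgtc

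A run of at least 8 pyrimidines within 25 bases of the annotated start was found in 12 of the 48 start windows in the table that belong to members (25%); these windows come from 37 of the members, some with several. The share was 36.4% of the 11 windows of ribosomal protein genes and 19.7% of all 32851 windows in the RefSeq table. On the opposite strand, where such a run reads as purines here, the shares were 14.6% of the members' windows and 21.6% of all. The 10 members with a pyrimidine run had a median ratio of 0.726, and the 27 members with a window and no such run also had 0.726. Annotated starts can lie some bases from the true start, so a window without a run says only that these letters are not there.

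The deposited table lists only genes with at least 100 counts in 1 of the 2 libraries. Its listed counts sum to 513965 for HP1 alpha and 830031 for the input; these sums are parts of the libraries and not their depths. Counts were scaled to these sums, and the ratio of HP1 alpha to input carries an exact 95% counting interval. The interval covers counting error only, and PCR copies are not independent molecules. Fibroblast markers were present (8 of 12, among them Col1a1, Col3a1 and Vim), and 0 of 4 immune, 0 of 4 epithelial and 0 of 4 endothelial markers were listed. In RefSeq, 228 protein-coding symbols match the rule. Of these, 47 were listed, and the remaining member, Mars, is named Mars1 there. Eef2, Npm1, Fbl and the Gtpbp genes were not listed and were not analysed here.

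Transcripts of the protein synthesis machinery took a smaller share of the HP1 alpha library than of the input. The 48 genes held 5125 counts, or 0.997% (0.970 to 1.02, exact binomial), in the HP1 alpha library and 11098 counts, or 1.34% (1.31 to 1.36), in the input. The ratio of these shares was 0.746 (0.721 to 0.771). The median ratio over the members was 0.724, against 0.865 over all listed genes, and 38 of the 48 lay below the median of all genes. Ratios ran from 0.404 for Rpl27a to 1.16 for Eif4g3. Ratios above 1 were found for 3 members, Eif4g3 and Gspt1 among them, and all 3 intervals included 1.

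With a gene called lower when its ratio was more than 2-fold below 1 and its interval excluded 1, 1 of the 48 members was lower (2.08%), against 0.830% of all listed genes. No member was higher by the same rule, which 2.36% of all listed genes met. The members therefore differed from the table mainly by modest ratios below 1. Of the 48, 29 had an interval wholly below 1 (60.4%), against 32.6% of all listed genes, and 0 had an interval wholly above 1, against 15.4%. TMM scaling raised every log2 ratio by 0.20 and brought the median of all genes from -0.21 to -0.01. With it, 17 members (35.4%) kept an interval below 1, against 13.7% of all genes, and 1, Eif4g3, had an interval above 1, against 23.3%.

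**Figure D1:**
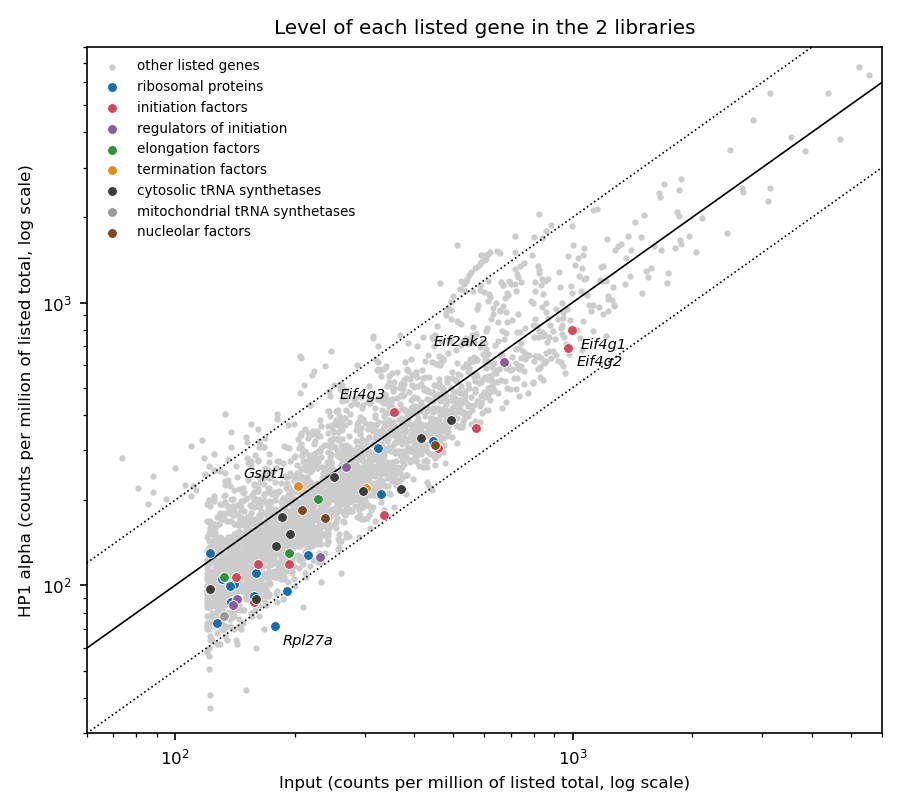
Level of every listed gene in the input (x axis) and in the HP1 alpha library (y axis), in CPM (counts scaled to the listed total) on log axes; each point is 1 gene, coloured by role for the 48 members. The solid line marks equal shares and the dotted lines 2-fold differences. Most members lie between the solid line and the lower dotted line. Rpl27a lies below the lower dotted line, and Rpl32, at a ratio of 0.498, lies just below it.

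The listing limit bears on these counts. A gene with fewer than 100 HP1 alpha counts could enter the table only through its input count. This was so for 29 of the 48 members (60.4%) and for 45.7% of all listed genes. At 61 or fewer HP1 alpha counts, such entry fixes the ratio below 1. A fixed direction held for 19 of the 48 members (39.6%) and for 16.2% of all listed genes. It affects the ribosomal protein genes most, with 9 of 14. Among the 19 members with at least 100 counts in both libraries, 12 had an interval below 1 (63.2%), against 27.1% of all such genes, and 0 had an interval above 1, against 26.9%. The median ratio was 0.778 for these 19 and 0.973 for all 1685 such genes, or -0.36 and -0.04 in log2. The sets also differed in gene span, the distance from the first to the last annotated base. The median span was 20.2 kb for the 19 members and 78.5 kb for all such genes with a known position. Relative to the median of genes of like span, the median log2 difference was -0.08 for the 19 members and 0.06 for all such genes. The part of span in this contrast was not tested.

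**Figure D2:**
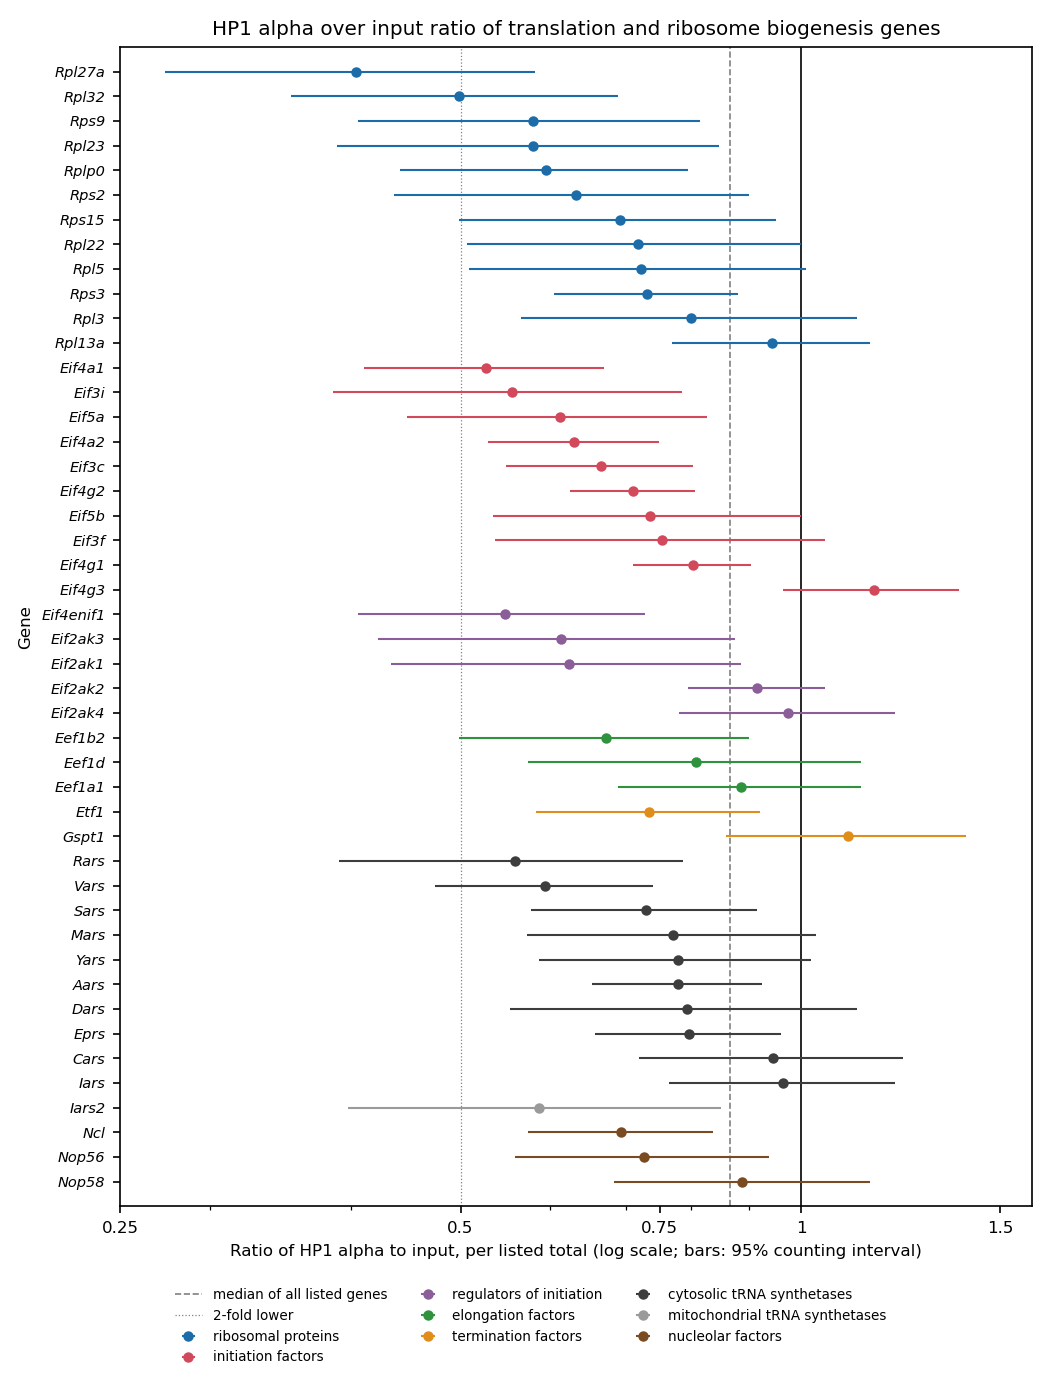
Ratio of HP1 alpha to input for 46 of the 48 members (log axis), ordered by ratio within each role; points are ratios of 1 library to 1 library and bars are 95% counting intervals. The dashed line is the median of all listed genes, 0.865, and the dotted line is 2-fold lower; 28 of the 46 bars end below 1.

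Most ribosomal protein genes had ratios below the median of all genes, 12 of 14. The 14 listed genes had 37 to 167 counts with the antibody and 102 to 369 in the input, and their summed counts, 995 and 2324, gave a ratio of 0.691 (0.641 to 0.745). The median ratio was 0.666, and 9 of the 14 intervals lay below 1, against 32.6% of all listed genes. Intervals below 1 were also found for 174 of the 292 listed genes up to 10 kb, the size range of these 14. The 8 large subunit genes gave a pooled ratio of 0.678 (0.610 to 0.753) and the 6 small subunit genes 0.706 (0.634 to 0.786), so the subunits differed by less than the counting error. The listing limit fixed the direction of 9 of the 14; the 3 with both counts at least 100 had a median log2 ratio of -0.45, against -0.58 for all 14 and -0.49 for the 5 such initiation factor genes.

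Rpl27a, a large subunit gene, had 37 counts with the antibody and 148 in the input. Its ratio was 0.404 (0.274 to 0.582), a log2 ratio of -1.29, and it was the member counted as lower. Rpl27a (ENSMUSG00000046364.10) lies on chromosome 7 from 109519195 to 109522369 and holds 2 annotated snoRNA genes. Rpl32, also of the large subunit, had 49 counts against 159, for a ratio of 0.498 (0.354 to 0.689), which just missed the 2-fold rule because a pseudocount of 0.5 enters the log2 ratio. The span of Rpl32 overlaps Cand2, another listed gene. Both genes had so few HP1 alpha counts that the listing limit fixed their ratios below 1, though not their size.

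Several further ribosomal protein genes had ratios from 0.579 to 0.731 with intervals below 1. Rplp0, which forms the base of the ribosomal stalk, had 66 counts against 179, for a ratio of 0.595 (0.442 to 0.794). Rps3, which lines the mRNA entry channel, had the most counts of the group, 167 and 369, and a ratio of 0.731 (0.605 to 0.880). The listing limit fixed the direction of neither, though Rplp0 was listed through its input count alone. Rps9 and Rpl23 both had a ratio of 0.579, from 47 and 38 HP1 alpha counts.

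At the other end, Rpl13a had 157 counts with the antibody and 269 in the input, a ratio of 0.943 (0.769 to 1.15). The ratio of Rpl13a was 2.33 times that of Rpl27a (1.53 to 3.62), so members of 1 ribosomal subunit differed from each other beyond counting error. This pair, and those below, were picked after their values were seen, from 18 computed. Of the 14 genes, 10 have pseudogenes in RefSeq that carry their name (Rps2 alone has 12), and 9 hold snoRNA genes. How the authors' counting treated reads that fit such copies or nested genes is not given in the sources used here.

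Initiation factor genes held the most counts of any role, a sum that grows with gene length and with the number of genes. The 10 genes had 45 to 411 counts with the antibody and 118 to 828 in the input. Their summed ratio was 0.730 (0.688 to 0.775) and 7 of the 10 intervals lay below 1, against 32.6% of all listed genes. The eIF4G proteins are scaffolds for initiation, best known from eIF4F, the complex that binds the mRNA cap, and 3 of their genes were listed. Eif4g1, the main scaffold, had 411 counts against 828, for a ratio of 0.802 (0.710 to 0.903). Eif4g2, a relative that lacks the cap-binding partner site, had 356 counts against 810, for a ratio of 0.710 (0.625 to 0.805). Eif4g3, the third paralog, had 211 counts against 295, for a ratio of 1.16 (0.963 to 1.38).

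The ratio of Eif4g3 was 1.44 times that of Eif4g1 (1.16 to 1.79) and 1.63 times that of Eif4g2 (1.30 to 2.03), and Eif4g1 and Eif4g2 differed by 1.13 (0.948 to 1.35). Eif4g3 spans 215 kb on chromosome 4, from 137991779 to 138207086, and is the longest member. Eif4g1 spans 20.2 kb and Eif4g2 15 kb. Relative to the 200 listed genes nearest to each in span, the log2 ratio was -0.17 for Eif4g3, 0.02 for Eif4g1 and -0.08 for Eif4g2. On that scale Eif4g3 was no longer the highest of the 3.

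The genes of the eIF4A helicases, which unwind mRNA leaders, both lay low. Eif4a1 had 91 counts against 279, a ratio of 0.527 (0.411 to 0.670), the lowest among initiation factors. Eif4a2 had 185 counts against 474, for a ratio of 0.630 (0.529 to 0.749), and the paralogs differed by 1.2 (0.886 to 1.62), within counting error. Eif4a1 holds 3 annotated snoRNA genes and Eif4a2 holds 5.

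Among the listed subunits of eIF3, which bridges the small ribosomal subunit and the mRNA, Eif3c had 157 counts against 381, for a ratio of 0.665 (0.549 to 0.803). Eif3i had 45 counts against 131, for a ratio of 0.555 (0.386 to 0.784), and Eif3f had 55 and 118 and a ratio of 0.753 (0.536 to 1.05). The 3 subunits pooled gave 0.659 (0.568 to 0.763). Eif5a, whose protein carries the modified residue hypusine and acts in elongation and termination despite its name, had 61 counts against 161, for a ratio of 0.612 (0.448 to 0.826). Eif5b, the GTPase that joins the subunits, had 61 counts against 134, for a ratio of 0.735, with an upper bound of 1.00.

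The regulators of initiation split into low and near-equal genes. The 4 eIF2 alpha kinases each answer a different stress by slowing initiation. Eif2ak2, the double-stranded RNA sensor PKR, had 316 counts against 558 and a ratio of 0.915 (0.794 to 1.05). Eif2ak4, the amino acid sensor GCN2, had 135 counts against 224, for a ratio of 0.973 (0.780 to 1.21). Eif2ak1, the heme-regulated kinase, had 46 counts against 119, for a ratio of 0.624 (0.434 to 0.884), and Eif2ak3, the endoplasmic reticulum kinase PERK, had 44 and 116 and a ratio of 0.613 (0.423 to 0.874). The ratio of Eif2ak4 was 1.59 times that of Eif2ak3 (1.04 to 2.45) and 1.56 times that of Eif2ak1 (1.03 to 2.39), intervals that come close to 1. The HP1 alpha counts of Eif2ak1 and Eif2ak3 are low enough that the listing limit fixed their direction.

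Eif4enif1, which carries the cap-binding protein eIF4E into the nucleus and to processing bodies, had 65 counts with the antibody and 192 in the input. Its ratio of 0.547 (0.406 to 0.728) was the lowest among the regulators. The limit did not fix its direction, though the gene was listed through its input count alone. The ratio was also 0.660 of the median of genes of like span (0.490 to 0.878), at percentile 2.0 of its 200 span neighbours.

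By role medians, 0.807 for 3 elongation genes and 0.916 for 2 termination genes, these roles lay nearest to the median of all listed genes. The pooled ratio of the elongation genes, 0.792 (0.672 to 0.930), was below the 0.809 of the regulators. Eef1a1, which delivers charged tRNAs to the ribosome, had 104 counts against 190, for a ratio of 0.884 (0.689 to 1.13). Its exchange factor genes Eef1b2 and Eef1d had 67 and 55 counts with the antibody against 161 and 110, and ratios of 0.672 (0.498 to 0.899) and 0.807 (0.573 to 1.13). Etf1, which reads stop codons, had 114 counts against 251, for a ratio of 0.733 (0.583 to 0.919). Gspt1, the GTPase that acts with it as release factor, had 115 counts against 169, for a ratio of 1.10 (0.859 to 1.4). Etf1 and Gspt1 had nearly the same HP1 alpha count and differed in the input, and the ratio of Gspt1 was 1.5 times that of Etf1 (1.07 to 2.10).

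The 10 cytosolic tRNA synthetase genes gave a pooled ratio of 0.766 (0.711 to 0.824). Of their intervals 5 lay below 1, against 32.6% of all listed genes. Aars, for alanine, was the most abundant, with 198 and 411 counts and a ratio of 0.778 (0.653 to 0.924). Eprs, for glutamate and proline in 1 protein, had 170 and 345 counts and 0.796 (0.658 to 0.959). The lowest were Rars, for arginine, with 46 and 133 counts and 0.559 (0.390 to 0.786), and Vars, for valine, with 113 and 307 and 0.594 (0.475 to 0.740). The highest were Iars, for isoleucine, with 124 and 208 counts and 0.963 (0.764 to 1.21), and Cars, for cysteine, with 90 and 154 and 0.944 (0.719 to 1.23). Sars, for serine, had 111 counts against 246 and 0.729 (0.577 to 0.915), while Dars, Mars and Yars had ratios from 0.770 to 0.792 with intervals that include 1.

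Membership of the multisynthetase complex, which holds Dars, Eprs, Iars, Mars and Rars, did not separate the genes. Those 5 gave a pooled ratio of 0.795 (0.709 to 0.889), and the 5 outside it gave 0.744 (0.674 to 0.821). Iars2, which charges mitochondrial tRNA, had 40 counts against 110, for a ratio of 0.587 (0.398 to 0.850). The ratio of Iars was 1.64 times that of Iars2 (1.05 to 2.58). Iars2 overlaps Rab3gap2, another listed gene, and its direction was fixed by the listing limit.

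Of the nucleolar factors, Ncl encodes nucleolin, a main RNA-binding protein of the nucleolus, and had 161 counts against 375, for a ratio of 0.693 (0.573 to 0.836). Nop56 and Nop58 encode core proteins of the box C/D snoRNPs, which methylate ribosomal RNA. Nop56 had 89 counts against 198, for a ratio of 0.726 (0.559 to 0.937), and Nop58 had 95 and 173 and 0.887 (0.683 to 1.15). Their difference, a factor of 1.22 (0.844 to 1.77), was within counting error. All 3 nucleolar genes hold snoRNA genes, 5 in Nop56 and 4 in Nop58.

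Under TMM scaling 7 members turned from a ratio below 1 to one above 1: Rpl13a, Eef1a1, Eif2ak2, Eif2ak4, Iars, Cars and Nop58. None of them had an interval that excluded 1 in the first place.

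A nested snoRNA gene was a feature that the symbol rule did not use. Of the 48 members, 20 hold at least 1 annotated snoRNA gene (41.7%), against 4.05% of the 3089 listed genes with a known position. The ratio did not follow it closely. The 20 members with a snoRNA gene had a median ratio of 0.716 and a pooled ratio of 0.723 (0.689 to 0.759), and the 28 without had 0.734 and 0.767 (0.733 to 0.803). Over all listed genes the medians were 0.872 with a snoRNA gene and 0.863 without. Other genes also share ground with the members: 17 overlap another annotated protein-coding or lncRNA gene, and 3 (Rpl32, Eif5b and Iars2) overlap one that is listed.

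Gene span moved with these ratios. The span, from the first to the last annotated base with introns, had a median of 15 kb over the members and 48.2 kb over all listed genes, and 4.04 kb over the ribosomal protein genes. Across the 48 members the log2 ratio and log10 span had Spearman's rho of 0.340 and Pearson's r of 0.364, and across all 3089 positioned genes these were 0.610 and 0.598. These are correlations across genes of the same 2 libraries, and genes are not independent replicates. Among members no longer than 10 kb, 22 in number, the median ratio was 0.655 against 0.731 for the 292 listed genes of that size, and the 26 longer members had 0.774 against 0.881 for 2797. Both size classes of members thus lay below their size class in the table by smaller margins than the members lay below all genes.

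**Figure D3:**
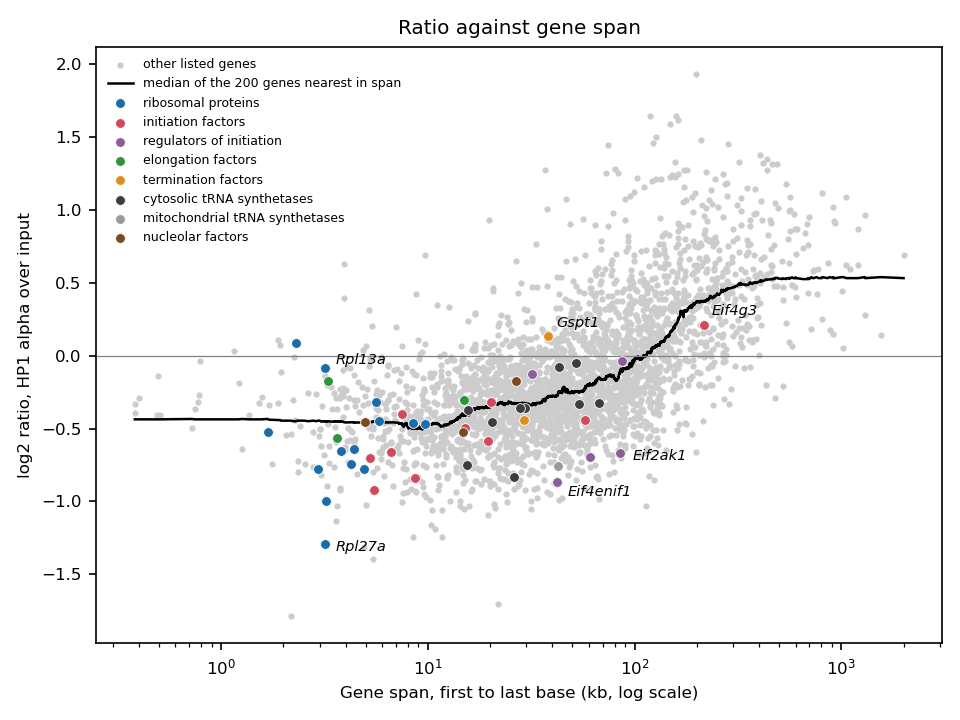
Log2 ratio of HP1 alpha over input (y axis) against gene span in kb (x axis, log scale) for every listed gene with a known position; coloured points are the 48 members by role. The black line is the median of the 200 genes nearest in span; ribosomal protein genes sit at the short end, with Rpl27a lowest at -1.29.

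When each ratio was set against the median of its 200 span neighbours, the median log2 difference of the members was -0.12, and 32 of 48 lay below their neighbours. The difference was -0.14 for ribosomal protein genes, -0.21 for initiation factors, -0.50 for the regulators and -0.06 for cytosolic synthetases. The value of the regulators rests on 5 genes: the 2 with both counts at least 100, Eif2ak2 and Eif2ak4, had a median log2 ratio of -0.08, and the pooled ratio of all 5 was 0.809 (0.733 to 0.893). The difference from span neighbours was 0.11 for elongation factors and 0.15 for termination factors. On this scale 8 members had an interval below 1 (16.7%), against 11.8% of all positioned genes, and 4 had one above 1 (8.33%), against 15.4%. The members thus stood nearer to the table in both shares once genes of like span were the reference, and the part of span in these ratios was not tested.

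The 8 members that stayed low on this scale came from 4 roles. They were Rpl27a, at 0.551 of its neighbours (0.374 to 0.795), Rpl32, Eif4a1, Eif4enif1, Eif2ak1, Eif2ak3, Rars and Vars, the others from 0.660 to 0.782. Upper bounds came close to 1 for Eif2ak3 (0.998), Rars (0.985) and Vars (0.973). For 5 of these 8 (Rpl27a, Rpl32, Eif2ak1, Eif2ak3 and Rars) the listing limit fixed a ratio below 1 to input, so their place here is partly set by how they entered the table. The direction of Eif4a1, Eif4enif1 and Vars was not fixed in this way. Eif4a1 and Eif4enif1, with 91 and 65 HP1 alpha counts, were still listed through their input counts alone. Vars had 113 HP1 alpha counts and was not. The 4 above their neighbours included Gspt1, at 1.34 (1.05 to 1.71), Rpl13a, at 1.29 (1.05 to 1.58), and Eif2ak2, at 1.16 with a lower bound of 1.00.

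**Figure D4:**
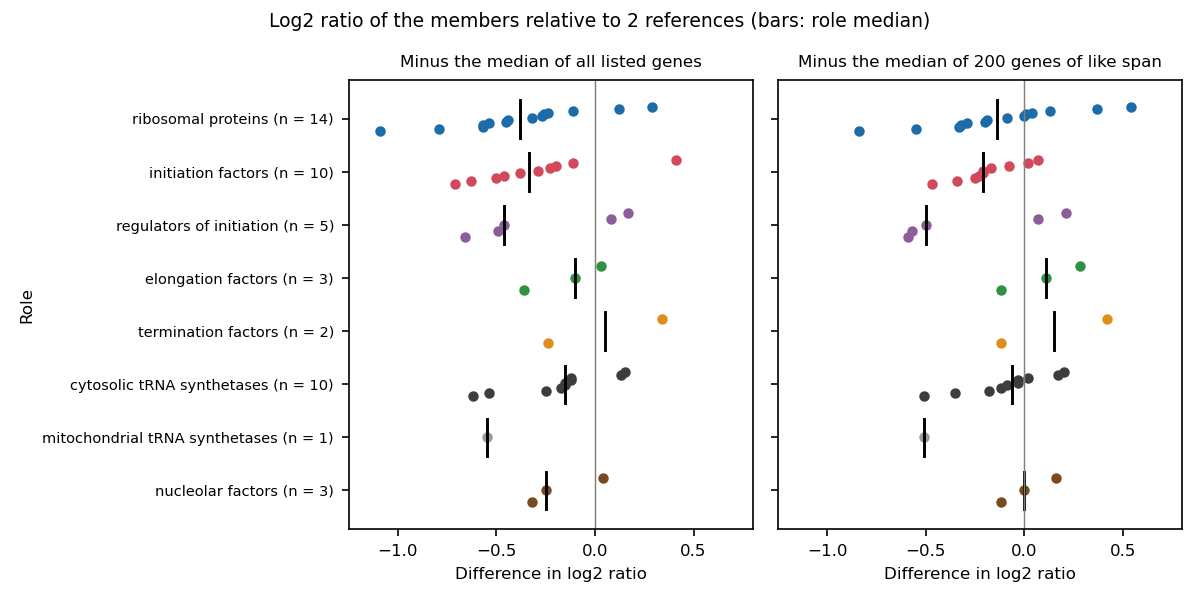
Log2 ratio of each member minus the median of all listed genes (left) and minus the median of its 200 span neighbours (right), by role; points are genes and black bars are role medians. The ribosomal protein median moves from -0.38 to -0.14 and the initiation factor median from -0.33 to -0.21, while that of the regulators is -0.46 and -0.50.

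Levels per kb of gene span give another order of the members. Rpl13a was densest, with 96.0 CPM per kb with the antibody and 102 in the input. Rps15 followed in the HP1 alpha library with 65.9 and had 95.2 in the input. Eef1a1 had 61.8 and 70.0, and Eif4a2, the densest initiation factor, had 54.0 and 85.7. Long genes were thin, among them Eif2ak1 at 1.05 and 1.69 and Eif4g3 at 1.91 and 1.65. Spans include introns, so this is no measure of mRNA level.

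Other genes of the pathway, outside the symbol rule, were taken from a list of 176 symbols, of which 36 were listed. None was higher or lower by the 2-fold rule. Their median ratio was 0.801, between that of the members and that of all genes, and 16 of 36 intervals lay below 1 and 2 above, where 32.6% and 15.4% of all listed genes did. Against span neighbours their median log2 difference was -0.03, and it was 0.06 for the genes of translational control. The 2 genes of ribosomal RNA transcription, Ubtf, the upstream binding factor of RNA polymerase I, and Tcof1, the nucleolar protein treacle, had 0.657 (0.511 to 0.839) and 0.681 (0.511 to 0.901). Of 9 listed genes of ribosomal RNA processing, 4 had an interval below 1 and 1 above: Spata5, an ATPase gene, had 232 counts against 223, for a ratio of 1.68 (1.39 to 2.03). Of 25 genes of translational control, 10 had an interval below 1 and 1 above.

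That gene was Rptor, the scaffold of the mTOR complex that senses nutrients, with 361 and 373 counts and a ratio of 1.56 (1.35 to 1.81). Igf2bp2, an mRNA-binding protein gene, had 324 and 459 counts and 1.14 (0.986 to 1.32). The control genes whose intervals ended farthest below 1 were Cpeb4, which binds the cytoplasmic polyadenylation element, at 0.561 (0.385 to 0.802), and Rps6ka3, the kinase RSK2, at 0.628 (0.480 to 0.814). Set against span neighbours, the interval of Rptor included 1, at 1.13 (0.975 to 1.31), while that of Spata5 stayed above 1, at 1.44 (1.2 to 1.74). Rps6kb1, the S6 kinase gene, named after its value was seen, had an interval of 0.983 to 1.73 around a ratio of 1.31 and lay above its span neighbours at 1.55 (1.16 to 2.05).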

How the data were processed

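The eCLIP libraries of NIH3T3 cells, 2 in all, were 1 with HP1 alpha antibody and 1 input. The authors deposited raw read counts per gene and a fold ratio that, per the file headers, is normalized to total mapped reads; it equals the count ratio times 1.66. STAR 2.6.0c and featureCounts are listed, with the build GRCm38, per the submitters' processing notes. Strand, exon or gene counting and duplicate removal were not stated in them. The columns are headed MEF and mock; they were assigned by the HP1 label and the lack of antibody. Other sample columns numbered 0.

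Counts were divided by each library's listed sum. Ratios have Clopper-Pearson intervals (scipy 1.17.1), log2 ratios a pseudocount of 0.5, and a minimum of 20 counts over both libraries removed no gene. Ratios between genes have exact conditional intervals. Functions were checked on simulated counts. TMM (edgeR 4.0.16) and DESeq2 1.42.0 gave alternative scalings. Positions came from RefSeq on GRCm38.p6: 2969 listed genes matched by symbol, 120 by synonym and 45 did not match. Any member may be named; full values go to those past 2-fold, the 4 most abundant and the extremes of each role. Members and lists were chosen with earlier results of these data known. Values of 2 members are not reported singly here; both stay in counts, medians and sums.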

Additional observations from a re-analysis of the deposited data

How the results depend on the processing

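No paired analysis was possible because HP1 alpha and input have 1 library apiece. The 29 members with an interval below 1 became 17 with TMM (13.7% of all genes) and 17 with DESeq2 factors (12.4%), 8 against span neighbours (11.8%), 4 of 5 when the larger count was at least 400 (39.0%), 12 of 19 with both counts at least 100 (27.1%), and 15 of 28 without members that hold a snoRNA gene (32.4%), a setting chosen after seeing the data. The median of the regulators, -0.67, was -0.13 with the larger count at least 400 and -0.08 with both at least 100, where 1 and 2 genes remained. The count above 1, 0 as reported, was 1 with TMM, 1 with DESeq2 factors and 4 against span neighbours. The 1 lower member, Rpl27a, became 0 with the larger count at least 400, with both counts at least 100 and against span neighbours. The median log2 ratio of -0.46 was -0.26 with TMM, -0.25 with DESeq2 factors, -0.36 at either count minimum and -0.12 against span neighbours. The share ratio of 0.746 was 0.855 with TMM, 0.862 with DESeq2 factors and 0.789 with both counts at least 100. The termination factor median of -0.15 turned to 0.04 with TMM, 0.06 with DESeq2 factors and 0.15 against span neighbours. The elongation factor median of -0.30 turned to 0.11 and the log2 ratio of Eif4g1, -0.32, to 0.02 against span neighbours. Another scaling shifts all log2 ratios alike, and the count minimums leave fewer members; the cause of the other changes was not tested. Precision is lowest for members near the listing limit: the interval of Rpl27a ran from 0.274 to 0.582.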
